A study of Homo sapiens with 48 samples.

Results

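The transcripts of 10 negative-feedback regulators of the ERK pathway were followed in K562 cells with and without imatinib: the dual-specificity phosphatases DUSP1, DUSP2, DUSP4, DUSP5, DUSP6 and DUSP7, the Sprouty proteins SPRY1, SPRY2 and SPRY4, and SPRED2. They were found by symbol in the platform annotation, and every probe set that names 1 of them alone was taken. That gave 17 of the 22215 probe sets that are not array controls, for 10 of the 11963 genes named by at least 1 probe set. K562 is an established human leukaemia line whose growth is driven by the kinase BCR-ABL1, the target that imatinib was designed to inhibit. The series holds 48 Affymetrix arrays in 8 sets lettered A to H, each with 3 mock-treated samples (24 in all) and 3 samples (24 in all) treated with 1 micromolar imatinib for 24 hours. Titles and descriptions give the treatment, while the keywords of the 24 imatinib samples read mock treated; titles and descriptions were followed here. What the letters stand for, and how long the mock treatment lasted, is not given in the sources used here. The labels also separate the treatments by RNA isolation: Trizol and then a Qiagen RNeasy column for every mock sample, the column on its own for every imatinib sample. Imatinib and the isolation method therefore cannot be told apart in any difference below. The labels name no separate cultures, so the p-values reflect only how far the arrays of a group differ, and that spread may be technical.

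ERK is the last kinase of the RAS, RAF and MEK cascade, and BCR-ABL1 feeds that cascade through adaptor proteins such as GRB2 and GAB2. ERK activity induces its own inhibitors: the DUSP family removes phosphate from the threonine and tyrosine of the MAP kinase activation loop, Sprouty proteins act between the receptor or oncogenic kinase and RAF, and SPRED proteins bring the RAS GTPase-activating protein neurofibromin to the membrane. Because the genes are induced by the kinase they restrain, their messenger RNAs are widely used as readouts of ERK pathway output.

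The feedback genes did not move as a group. SPRY4 (3.05-fold), SPRED2 (2.57-fold at its brightest probe set) and DUSP5 (1.83-fold) were lower after imatinib in each of the 8 sets. The other SPRED2 probe sets changed less, by -0.33 (212466_at) and 0.05 (214026_s_at, not called) on the log2 scale. SPRY2 was low on the arrays and was 1.44-fold lower over all sets, with the fall called in 6 of 8. DUSP1 went the other way and rose 2.55-fold at its brightest probe set and 1.33-fold at the other, both above 0 in each of the 8 sets. DUSP2, DUSP4, DUSP6, DUSP7 and SPRY1 had changes in the 8 sets together of 0.11 or less on the log2 scale in either direction, at every one of their probe sets. All values are the deposited expression values, which were taken as log2 from their range. Changes are imatinib minus mock. A probe set is called changed where limma's moderated test gives a Benjamini-Hochberg adjusted p under 0.05 over all 22215 probe sets.

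Over the 8 sets together, 5 of the 17 probe sets were called higher and 6 lower, while 39.3% of all probe sets were called higher and 25.8% lower. With 65.2% of all probe sets called in one direction or the other, 11 of 17 is near that share, so being called says little about a member. Centring each array on its median moved the split of all calls from 8740 higher and 5738 lower to 6194 and 6638, and that of the members from 5 and 6 to 2 and 7. The bar of a 2-fold change was passed by 1 member probe set upward (DUSP1) and by 2 downward (SPRY4 and SPRED2), against 1.49% and 2.14% of all probe sets. Taking each gene by its brightest probe set, 4 members were called higher, 5 lower and DUSP6 was not called, with 68.7% of all 11963 genes called, 41.6% higher and 27.1% lower. The median change of the 10 members was -0.02, and that of all genes was 0.05. Only 3 of the 10 members, DUSP1, SPRY4 and SPRED2, had a probe set that reached the median of all probe sets' levels (6.43).

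**Figure D1:**
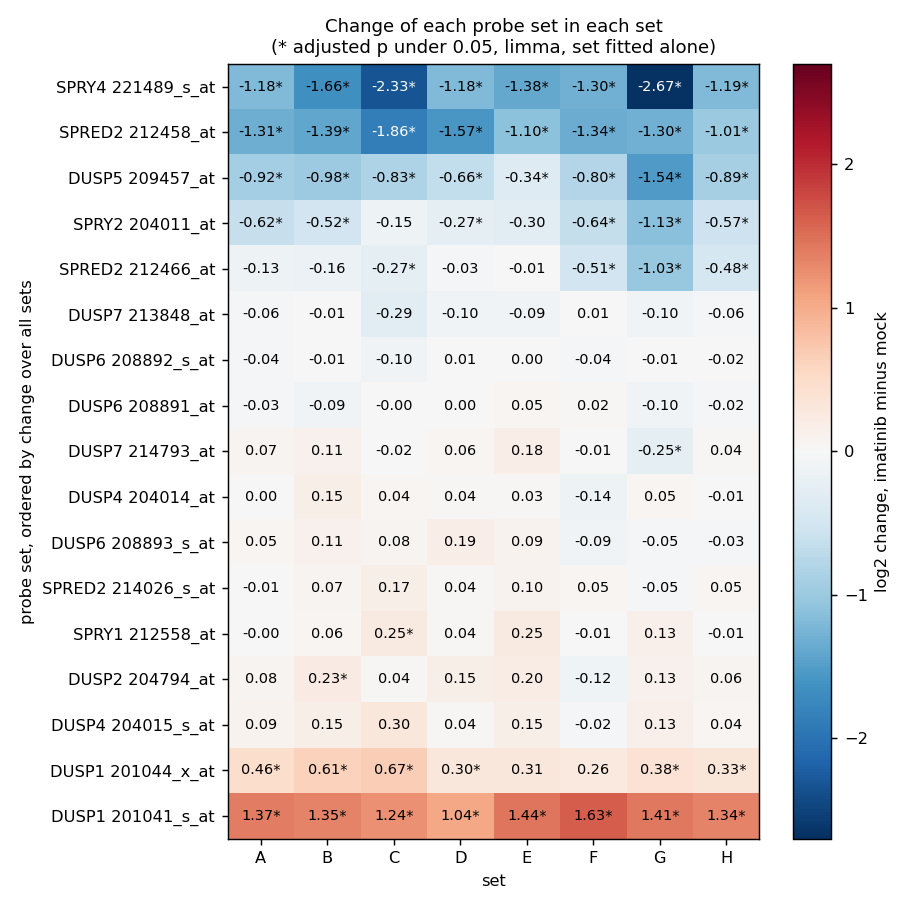
Log2 change (imatinib minus mock) of each of the 17 member probe sets (rows, ordered by their change over all sets) in each of the 8 sets (columns), on a colour scale with the value in each cell; an asterisk marks an adjusted p under 0.05 in that set alone, 3 mock against 3 imatinib samples. The SPRY4 row runs from -2.67 to -1.18, the top SPRED2 row from -1.86 to -1.01 and the top DUSP1 probe set from 1.04 to 1.63, while the rows of DUSP6, DUSP7, DUSP2, DUSP4 and SPRY1 lie around 0.

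Among the phosphatases, DUSP1 (NCBI gene 1843, chr5:172768096-172771195 in GRCh38.p14) encodes a nuclear enzyme that acts on p38 and JNK as well as on ERK, and whose gene is also switched on by stress and by cyclic AMP. The 250 bases upstream of its start in RefSeq's promoter table (GRCh38.p14, chr5:172771196-172771445, minus strand, written in the direction of transcription) are shown because DUSP1 was the 1 member with a rise of over 2-fold. Capitals mark matches to TGACG on either strand, the core of the element bound by the CREB and ATF family.

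DUSP1 upstream window: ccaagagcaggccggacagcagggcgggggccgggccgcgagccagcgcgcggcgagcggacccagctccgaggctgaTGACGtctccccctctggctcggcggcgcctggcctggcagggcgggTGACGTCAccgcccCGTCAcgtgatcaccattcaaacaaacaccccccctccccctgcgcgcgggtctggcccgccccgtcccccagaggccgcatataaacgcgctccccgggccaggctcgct

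The window held 4 matches to TGACG, with first bases 172, 125, 122 and 111 bases before the start, and the middle pair overlap. Of the 35116 windows in the table, 21.2% held at least 1 match and 0.236% (83 windows) held 4 or more. The window's GC content was 74.4%, and the median of all windows was 58%. Of the 10 members, 8 had a window in the table, 12 windows in all, the others being DUSP4 and DUSP5. Both strands were searched for TGACG, for the AP-1 element TGACTCA (4.2% of all windows), for CCGGAA, the core of an ETS site (14.5%), and for the CArG box of serum response factor (1.16%). DUSP2, DUSP6, DUSP7 and SPRED2 had no match to any of the 4, and SPRY1 had 1 to CCGGAA at its second listed start. A match is a run of letters in this window, not a shown binding site.

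DUSP1 probe set 201041_s_at stood at about the 80th percentile of all probe sets (mean 80.5). In set A it read 7.14, 6.84 and 6.95 in the mock samples and 8.22, 8.33 and 8.51 after imatinib. In set B it read 8.42, 8.37 and 8.29 in the mock samples and 9.47, 9.81 and 9.85 after imatinib, and in set C 6.89, 7.12 and 7.16 in the mock samples and 8.41, 8.23 and 8.24 after imatinib. Each treated sample lay more than 1 log2 unit above the mock samples of its own set in these 3 sets. The set D samples read 7.73, 7.45 and 7.73 in the mock samples and 8.56, 8.62 and 8.85 after imatinib, those of set E 6.45, 6.51 and 6.56 in the mock samples and 8.16, 7.76 and 7.92 after imatinib, and those of set F 7.34, 7.10 and 6.99 in the mock samples and 8.76, 8.63 and 8.93 after imatinib. Sets D and F hold the smallest and the largest rise of the 8, 1.04 and 1.63. Set G gave 8.33, 8.65 and 8.10 in the mock samples and 9.80, 9.75 and 9.76 after imatinib, and set H 7.60, 7.95 and 7.97 in the mock samples and 9.0, 9.31 and 9.24 after imatinib. In none of the 8 sets did a treated and a mock sample overlap, a pattern shared by 5.43% of all probe sets.

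The mean DUSP1 level over sets went from 7.49 to 8.84, a rise of 1.35 ± 0.05 (SE; 24 samples against 24; 95% interval 1.26 to 1.45), or 2.55-fold, with a limma adjusted p of 2.97e-29. It was called higher in each of the 8 sets fitted alone, as were 3.94% of all probe sets. The differences between sets in the size of the rise were within the spread of the samples (F test of the 7 set-by-treatment terms, limma adjusted p = 0.291). By the size of its rise DUSP1 ranked 184th among the 22215 probe sets. The other DUSP1 probe set, 201044_x_at, is of a kind (x_at) whose probes can match more than 1 transcript. It rose by 0.42 ± 0.05 (limma adjusted p = 2.53e-11) from a mean mock level of 5.85, and was called in 6 of 8 sets, with E and F not called. Its rise was smaller than that of 201041_s_at in 8 of 8 sets, by a mean of 0.94 (exact sign-flip test over 8 set differences, two-sided, p = 0.0176 after adjustment over the 9 pairs of probe sets compared within members).

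DUSP5 (NCBI gene 1847, chr10:110497907-110511533) encodes a nuclear phosphatase selective for ERK, and it was the only phosphatase of the 6 whose fall was called in every set. In set A probe set 209457_at read 5.59, 5.52 and 5.62 in the mock samples and 4.88, 4.61 and 4.49 after imatinib. In set B it read 7.62, 7.63 and 7.84 in the mock samples and 6.69, 6.56 and 6.90 after imatinib. The set C samples read 6.20, 6.42 and 6.48 in the mock samples and 5.57, 5.51 and 5.52 after imatinib. The mean changes of these 3 sets were -0.92, -0.98 and -0.83, with every treated sample below every mock one. In set D the values were 6.15, 5.93 and 6.03 in the mock samples and 5.31, 5.30 and 5.52 after imatinib. Set E had the smallest fall, with 5.47, 5.46 and 5.40 in the mock samples and 5.0, 5.26 and 5.04 after imatinib. Set F read 5.51, 5.66 and 5.21 in the mock samples and 4.65, 4.86 and 4.46 after imatinib. In set E the gap between the lowest mock and the highest treated sample was the narrowest of the 8 sets. The largest fall was in set G, with 7.39, 7.43 and 7.38 in the mock samples and 5.84, 5.80 and 5.96 after imatinib. Set H read 6.48, 6.61 and 6.48 in the mock samples and 5.72, 5.73 and 5.47 after imatinib. All treated samples lay below all mock samples of their set in 8 of 8 sets, as did 8.6% of all probe sets.

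The mean DUSP5 level fell from 6.31 to 5.44, by 0.87 ± 0.06 on the log2 scale (SE, 24 against 24), or 1.83-fold, with a limma adjusted p of 2.51e-18. The fall was called in each of the 8 sets alone, as were falls of 6.57% of all probe sets. Its size differed between sets, from -0.34 in set E to -1.54 in set G (F test of the set-by-treatment terms, limma adjusted p = 8.02e-05). Without set G that difference was no longer past the threshold (adjusted p = 0.0694). DUSP5 was below the median level throughout, at a mean percentile of 37.5 of all probe sets.

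DUSP6 is the cytoplasmic ERK-selective phosphatase most often used as a readout of ERK signalling, and none of its 3 probe sets was called in the 8 sets together or in any set alone. Probe set 208893_s_at, the brightest, went from 5.80 to 5.84, a change of 0.04 ± 0.03 with a 95% interval of -0.03 to 0.11 (limma adjusted p = 0.257). Probe set 208891_at changed by -0.02 ± 0.03 (interval -0.07 to 0.03, adjusted p = 0.492). Probe set 208892_s_at changed by -0.03 ± 0.02 (interval -0.07 to 0.02, adjusted p = 0.277). With each array centred on its median, 208892_s_at was called lower (-0.06, limma adjusted p = 0.00372). The last pair stood at mean percentiles of 4.55 and 1.19 of all probe sets, at the bottom of the arrays and the first at 36.2. No detection calls were used here.

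DUSP7, a close relative of DUSP6, was called lower at 213848_at by 0.09 ± 0.04 (limma adjusted p = 0.0309, mean mock level 6.21), with no set called when fitted alone. Leaving out set C (adjusted p = 0.144) or set D (0.0665) ended that call, and so did leaving out any 1 of mock samples 2 and 3 or imatinib sample 3 of set C, imatinib sample 2 of set E or mock sample 2 of set G (0.0530 to 0.0590). Its second probe set, 214793_at, changed by 0.02 ± 0.03 (interval -0.05 to 0.09, adjusted p = 0.591), and was called lower in set G alone (-0.25, limma adjusted p = 0.0434, 3 against 3). DUSP2 and DUSP4 encode inducible nuclear phosphatases. DUSP2 was called higher by 0.10 ± 0.03 (limma adjusted p = 0.011) from 5.87, with set changes from -0.12 to 0.23 and set B alone called. Without set B the adjusted p was 0.0646. DUSP4 probe set 204015_s_at was called higher by 0.11 ± 0.05 (limma adjusted p = 0.0316) from 5.08, was called in no set alone, and lost its call without set B, C, E or G (adjusted p up to 0.0734) and without any 1 of 6 single samples (0.0504 to 0.0602), 2 each of sets C and G and 1 each of A and B. Its other probe set, 204014_at, stood at a mean percentile of 5.2 and changed by 0.02 ± 0.03 (interval -0.04 to 0.08, adjusted p = 0.528). Centring each array on its median ended the calls of DUSP2 (adjusted p = 0.0597) and of DUSP4 204015_s_at (0.131). Quantile normalisation also ended that of DUSP4 204015_s_at (0.120), and 1 difference per set those of DUSP2 (0.0552) and DUSP7 213848_at (0.0572).

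**Figure D2:**
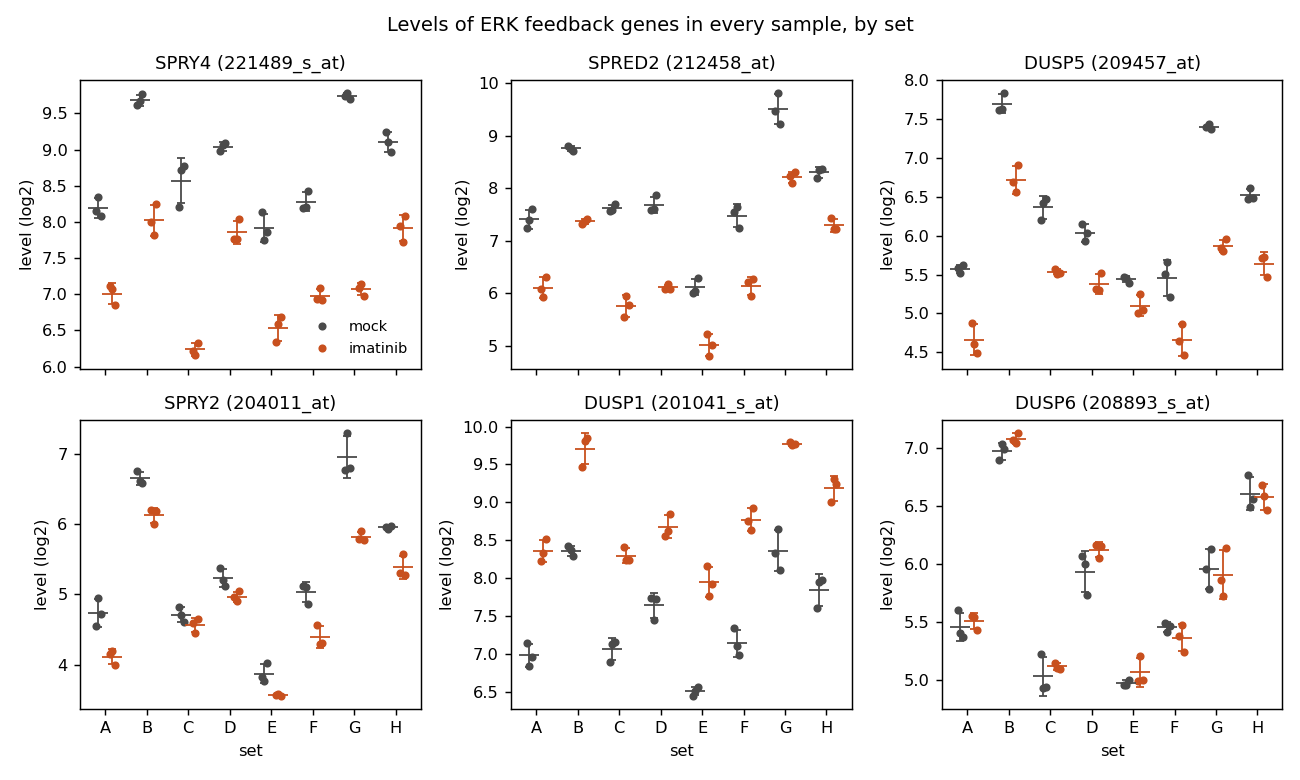
Log2 level of SPRY4, SPRED2, DUSP5, SPRY2, DUSP1 and DUSP6 in the 48 samples, 1 panel per gene (brightest probe set), with sets A to H along the horizontal axis; points are single samples, coloured by treatment, and bars are the mean and SD of 3. SPRY4, SPRED2 and DUSP5 have all imatinib points below the mock points of the same set, and DUSP1 has them above, in 8 of 8 sets. Of all probe sets, 8.6% have them below and 5.43% above in 8 of 8 sets.

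Sprouty proteins are the second group. SPRY4 (NCBI gene 81848, chr5:142310430-142325021) had the largest mean fall of the 10 members. Its upstream window in the RefSeq table (minus strand) held 1 match to TGACG, 68 bases before the start, and the 30 bases around it (GRCh38.p14, chr5:142324299-142324328) are shown for comparison with DUSP1. The start used for SPRY4 is not the outer edge of the gene, so its window lies inside the gene's span. The DUSP1 window lies just outside the edge of its gene.

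SPRY4 site: ctcttcggagccgTGACGgactgaattccc

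Probe set 221489_s_at, the only one that names SPRY4 alone, read 8.15, 8.34 and 8.09 in the mock samples and 7.11, 7.08 and 6.85 after imatinib in set A. In set B it read 9.61, 9.67 and 9.76 in the mock samples and 8.0, 7.81 and 8.25 after imatinib. The values of set C were 8.21, 8.72 and 8.77 in the mock samples and 6.22, 6.16 and 6.33 after imatinib. Treated samples of set C lay almost 2 log2 units or more below the mock samples, and those of sets A and B about 1 or more below. Set D read 8.98, 9.06 and 9.09 in the mock samples and 7.77, 7.76 and 8.04 after imatinib. Set E had 8.14, 7.75 and 7.87 in the mock samples and 6.34, 6.58 and 6.69 after imatinib. Set F had 8.19, 8.21 and 8.43 in the mock samples and 6.93, 7.09 and 6.92 after imatinib. The falls in D, E and F were close to each other, at -1.18 ± 0.08, -1.38 ± 0.13 and -1.30 ± 0.10 (log2, SE). In set G the samples read 9.74, 9.78 and 9.70 in the mock samples and 7.09, 7.14 and 6.98 after imatinib. In set H they read 9.24, 9.10 and 8.97 in the mock samples and 7.95, 7.73 and 8.08 after imatinib. The treated samples of set G were more than 2.5 log2 units below its mock samples, and those of H about 1 below.

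The mean SPRY4 level went from 8.82 to 7.20. It fell by 1.61 ± 0.09 on the log2 scale (SE, 24 against 24; 95% interval of the change -1.79 to -1.43), or 3.05-fold, with a limma adjusted p of 2.2e-21. It ranked 109th among 22215 probe sets by the size of the fall. Within single sets the change ran from -2.67 in G to -1.18 in A and D, with limma adjusted p from 4.51e-08 (G) to 4.7e-05 (F), n = 3 against 3. The call was made in 8 of 8 sets, as it was for 6.57% of all probe sets. No treated sample overlapped the mock samples of its set, and 8.6% of all probe sets had all treated below all mock samples in each set. The size of the fall differed between sets (limma adjusted p = 7.89e-09, F = 23.0), and still did without any 1 set or sample (adjusted p of 0.000351 or less). In each set SPRY4 was among the 1.7% of probe sets that fell most.

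SPRY2 (NCBI gene 10253, chr13:80335976-80341126) is the other Sprouty gene that fell. The 250 bases upstream of its first listed start (GRCh38.p14, chr13:80341127-80341376, minus strand) held 1 match to TGACG, 190 bases before the start, and 1 to CCGGAA 142 bases before it. The window is shown because it is the only 1 of the members' windows with both motifs, which are in capitals.

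SPRY2 upstream window: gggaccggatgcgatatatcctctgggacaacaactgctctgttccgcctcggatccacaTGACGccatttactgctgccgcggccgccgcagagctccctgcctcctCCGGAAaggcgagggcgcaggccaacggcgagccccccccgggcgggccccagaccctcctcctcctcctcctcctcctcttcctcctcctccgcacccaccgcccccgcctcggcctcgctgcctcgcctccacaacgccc

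SPRY2 probe set 204011_at was dim, at a mean percentile of 21.4 of all probe sets. In set A it read 4.54, 4.94 and 4.72 in the mock samples and 4.15, 4.19 and 4.0 after imatinib. In set B it read 6.75, 6.60 and 6.58 in the mock samples and 6.19, 6.0 and 6.18 after imatinib. The samples of set C read 4.82, 4.70 and 4.61 in the mock samples and 4.59, 4.46 and 4.65 after imatinib. Set C was the only 1 of the 8 in which treated and mock samples overlapped. Set D read 5.37, 5.20 and 5.12 in the mock samples and 4.96, 4.90 and 5.04 after imatinib, set E 3.83, 3.77 and 4.02 in the mock samples and 3.57, 3.59 and 3.56 after imatinib, and set F 5.12, 5.10 and 4.86 in the mock samples and 4.57, 4.30 and 4.30 after imatinib. The treated samples lay below the mock samples in each of these 3 sets, with the narrowest gap in D. Set G read 6.77, 7.29 and 6.80 in the mock samples and 5.79, 5.90 and 5.77 after imatinib, and set H 5.96, 5.92 and 5.97 in the mock samples and 5.30, 5.57 and 5.27 after imatinib. The fall of set G was the largest of the 8.

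SPRY2 fell by 0.52 ± 0.06 on the log2 scale (SE, 24 against 24; 1.44-fold, limma adjusted p = 1.02e-11), from 5.39 to 4.87. The change was below 0 in 8 of 8 sets and called in 6, with C (adjusted p = 0.189) and E (0.0559) not called. Its size differed between sets, from -0.15 in C to -1.13 in G (limma adjusted p = 0.000482), and that difference was lost without set G (0.0536). SPRY1 changed by 0.09 ± 0.04 (interval 0.01 to 0.17, limma adjusted p = 0.0493) from 5.64 and was called higher in set C alone. Its call was lost when arrays were centred (adjusted p = 0.227) and in 42 of the 62 alternatives tried, most of them the removal of 1 sample. Of the 3 Sprouty genes, SPRY4 and SPRY2 fell, and SPRY1 stood at 0.09 with a call that most alternatives did not keep.

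SPRED2 (NCBI gene 200734, chr2:65307175-65432599) is the 1 SPRED gene among the members, and its brightest probe set fell in every set. Probe set 212458_at read 7.25, 7.39 and 7.61 in the mock samples and 6.08, 5.92 and 6.31 after imatinib in set A. In set B it read 8.81, 8.76 and 8.72 in the mock samples and 7.32, 7.38 and 7.41 after imatinib, and in set C 7.57, 7.58 and 7.69 in the mock samples and 5.55, 5.95 and 5.77 after imatinib. Set C had the largest fall of the 8. Set D read 7.58, 7.61 and 7.86 in the mock samples and 6.08, 6.17 and 6.09 after imatinib. Set E read 6.0, 6.05 and 6.28 in the mock samples and 5.21, 4.81 and 5.02 after imatinib. Set F read 7.55, 7.65 and 7.24 in the mock samples and 6.21, 5.94 and 6.27 after imatinib. In sets D to F the treated samples again lay below the mock ones, by about 1 log2 unit or more on average. The set G samples read 9.48, 9.82 and 9.24 in the mock samples and 8.23, 8.10 and 8.30 after imatinib. Set H read 8.19, 8.35 and 8.38 in the mock samples and 7.44, 7.22 and 7.23 after imatinib. Within each of the 8 sets no treated sample overlapped a mock one. All treated samples lay below all mock samples in each set for 8.6% of all probe sets.

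The mean SPRED2 level fell from 7.86 to 6.50, by 1.36 ± 0.05 on the log2 scale (SE, 24 against 24), or 2.57-fold, with a limma adjusted p of 9.2e-27. The fall was called in 8 of 8 sets, as were falls of 6.57% of all probe sets. It ranked 192nd of 22215 probe sets by fall. The size of the fall ran from -1.01 in H to -1.86 in C and differed between sets (limma adjusted p = 0.0206), a call that was lost without set C (0.320), set H (0.0726), mock sample 3 of set C (0.0601) or imatinib sample 1 of set C (0.0661). The other SPRED2 probe sets moved less. Probe set 212466_at fell by 0.33 ± 0.06 (limma adjusted p = 8.76e-06) from 5.82, with calls in sets C, F, G and H, and 214026_s_at, at a mean percentile of 14.5, changed by 0.05 ± 0.03 (interval -0.01 to 0.12, adjusted p = 0.159). Without mock sample 3 of set G, 214026_s_at was called higher (limma adjusted p = 0.0369). The changes of the 3 differed from each other in 8 of 8 sets for each pair, by means of 1.03, 1.41 and 0.38 (exact sign-flip tests, two-sided, adjusted p = 0.0176 each). How the probe sets lie on the SPRED2 transcripts was not analysed here.

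**Figure D3:**
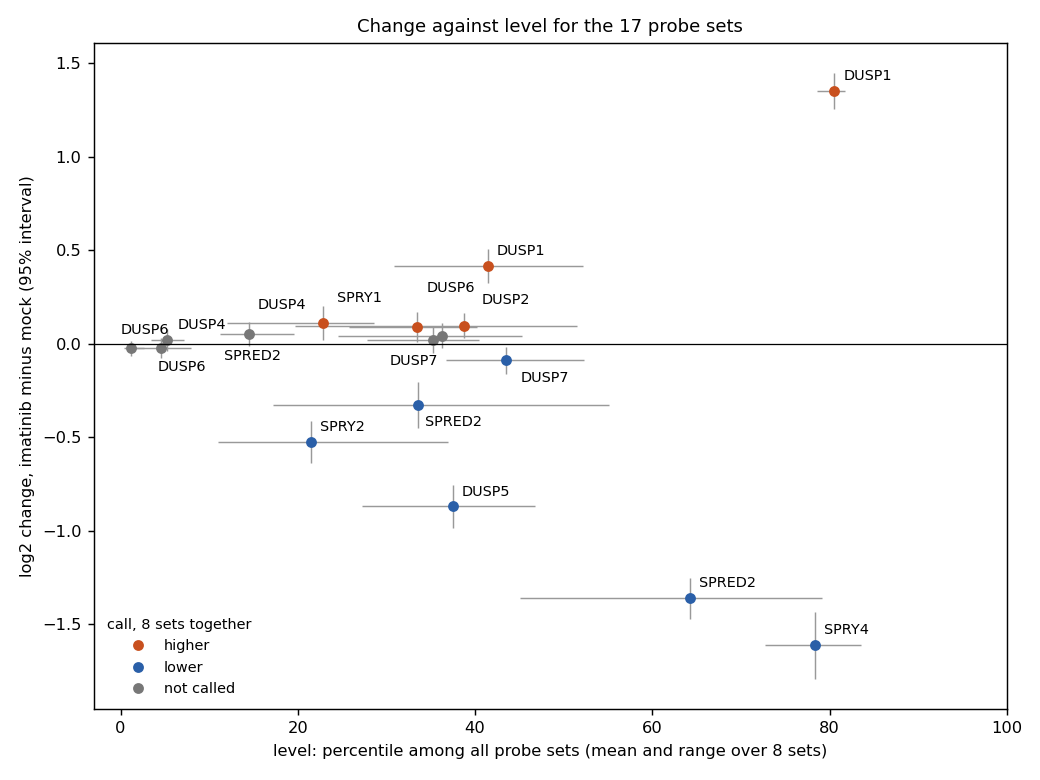
Log2 change of the 17 member probe sets in the 8 sets together (vertical axis, with the 95% interval) against their level as a percentile of all probe sets (horizontal axis, mean and range over 8 sets), coloured by call. The 3 probe sets to the right of the 50th percentile hold the 3 changes beyond 1 log2 unit, and the probe sets under the 10th percentile lie at 0.

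In the 8 sets together, changes of over 1 log2 unit were seen only at the 3 member probe sets above the median level, and 14 of the 17 were below it. The part of the low level in the small changes of the dim members was not tested. Set side by side, the members ran in the order SPRY4, SPRED2, DUSP5, SPRY2, DUSP7, DUSP6, SPRY1, DUSP2, DUSP4 and DUSP1 from the largest fall to the largest rise. Of the 9 pairs of neighbours in that order, 3 differed beyond the spread over sets in the exact sign-flip test (two-sided, adjusted over 9). These were DUSP5 and SPRY2 (mean difference 0.35, same direction in 8 of 8 sets, adjusted p = 0.0352), SPRY2 and DUSP7 (0.44, 7 of 8, 0.0469), and DUSP4 and DUSP1 (1.24, 8 of 8, 0.0352). Leaving out set A, B, D, E or H ended all 3. With 1 set fewer, the smallest p that this test can give is larger, so that loss does not show that the differences went away. SPRY4 and SPRED2 differed by 0.25 with an SD over sets of 0.53 (exact sign-flip adjusted p = 0.316), and SPRED2 and DUSP5 by 0.49 (0.0527).

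The number of member probe sets called in a single set ranged from 4 in E to 8 in G. Set A had 2 called higher and 4 lower, where 13.6% of all probe sets were higher, 14.7% lower and 28.3% either. Set B had 3 and 4 (27.8% of all higher, 19.9% lower, 47.7% either), and set C 3 and 4 (18.9%, 20.1% and 39%). Set D had 2 and 4 (20.9%, 18% and 38.9%), and set E 1 and 3 (7.24%, 12.1% and 19.4%). In every set the downward calls outnumbered the upward ones. Set F had 1 and 5 (7%, 9.47% and 16.5%), set G 2 and 6 (11.5%, 16% and 27.5%), and set H 2 and 5 (12.3%, 11.8% and 24.1%). Without the first imatinib sample of set E, 8 member probe sets were called in that set. The change differed between sets for 5 of the 17 member probe sets (1 each of SPRY4, DUSP5 and SPRY2 and 2 of SPRED2), and for 7.2% of all probe sets. Without set G the count fell to 2. Set G had the largest fall of the 8 at SPRY4, DUSP5, SPRY2 and SPRED2 212466_at, and set C at SPRED2 212458_at.

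The genes whose values went most like SPRY4 over the 48 samples, each centred on its set, were ATF3, HES1, CISH, PUM3 and EGR1, with Pearson's r from 0.963 to 0.974. The samples share sets and the 2 treatments, so these values describe the common split between mock and imatinib as well. Genes chosen by this r were bound to fall with SPRY4, so the direction of their changes is no separate result. The changes were -1.72 for ATF3, -1.96 for HES1, -1.71 for CISH, -1.28 for PUM3 and -3.42 for EGR1.

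Around the members, 90 other genes in 7 lists, called pathway genes here, were measured, each taken by its brightest probe set. The lists include p38 and JNK kinases, and the other dual-specificity phosphatases were listed by family, not by an action on ERK. Of these, 27 were called higher and 39 lower, where 41.6% and 27.1% of all genes were. Of 20 other transcripts that respond to ERK, 13 were lower and 2 higher, with a median of -0.31 against 0.05 for all genes. Leaving out 1 sample or set left the 13 lower calls at 13 and moved the 2 higher calls to between 2 and 5, with 5 without imatinib sample 3 of set H or without set H. The change was -3.42 for EGR1, an immediate-early transcription factor, -1.90 for ETV5, an ETS factor, -1.51 for IER2, an immediate-early gene, and -1.36 for the growth regulator MYC. EGR1 (9.50 to 6.09) and ETV5 (7.97 to 6.07) passed the level bar for naming, the median of 6.43, through their mock samples. The other 6 lists had medians between -0.02 and 0.14.

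Upstream of the feedback, 7 of 15 adaptor, exchange factor and RAS genes were lower and 3 higher. RRAS2, a RAS-family GTPase, changed by -1.38 and GAB2, the adaptor, by -0.59. Of 13 genes for RAF, MEK, ERK and their scaffolds 8 were higher and 4 lower, and the MEK genes MAP2K1 and MAP2K2 changed by -0.55 and 0.83. In the same list IQGAP1 changed by -0.88 and PEA15 by -0.87. Of 8 genes of the p38 and JNK branches, 6 for the MAP kinases themselves and 2 for the upstream kinases MAP2K4 and MAP2K6, 5 were not called, MAPK13 was higher (0.16) and MAPK8 and MAP2K4 were lower (-0.14 and -0.15). Of 14 ERK substrates and transcription factors, 4 were higher and 6 lower, with RPS6KA3, a kinase of the RSK family, at -0.82 and the repressor ERF at -0.47.

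Of 10 other dual-specificity phosphatases, 4 were higher and 5 lower. DUSP21 rose by 1.92 ± 0.07 (SE, 24 against 24), from 5.72 to 7.64, where the highest rise among the 10 members was the 1.35 of DUSP1, and DUSP12 fell by 0.66. The mean mock level of DUSP21 was under the median level of 6.43, so DUSP21 passed the level bar for naming through its imatinib samples. DUSP9, a cytoplasmic ERK phosphatase related to DUSP6 and DUSP7, fell by 0.44. Of 10 other feedback inhibitors and RAS GTPase-activating proteins, 5 were higher and 2 lower, with changes from -0.11 to 0.43. PEBP1, the RAF kinase inhibitor protein, and RASA3 were each at -0.11, and RASAL1 was at 0.14. The 1 neurofibromin probe set taken (NF1), the partner of SPRED2, changed by 0.04 and stood at a mean percentile of 3.88.

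**Figure D4:**
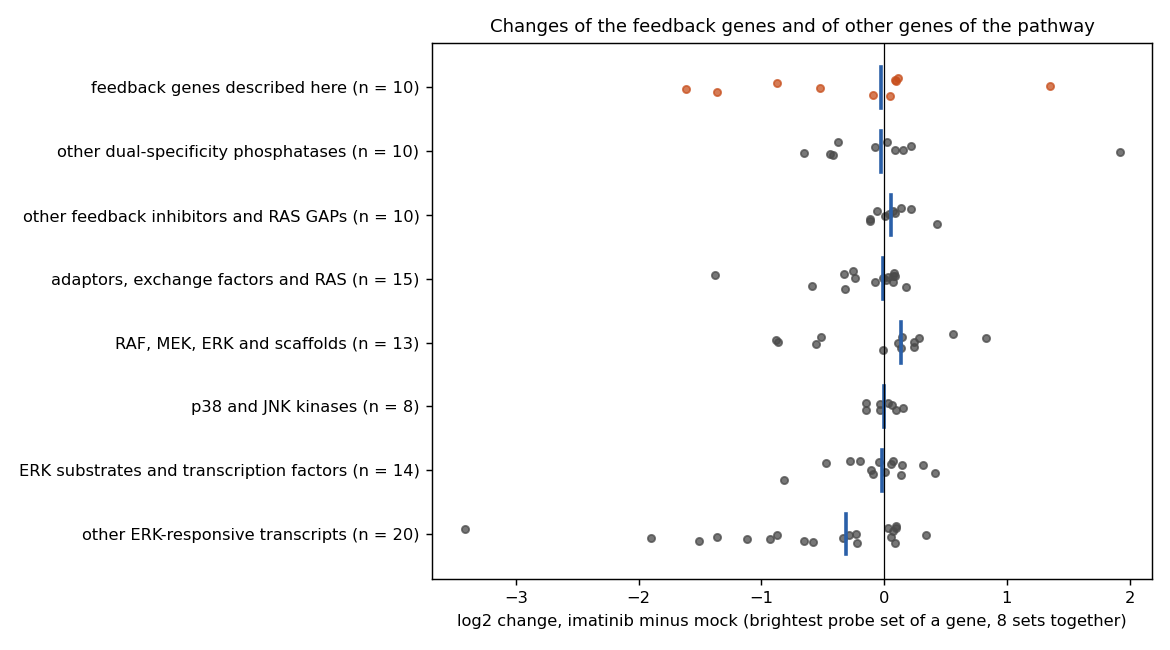
Log2 change (horizontal axis, imatinib minus mock, 8 sets together, brightest probe set) of the 10 feedback genes, in the top row in orange, and of the measured genes of the 7 pathway lists, in grey; each point is a gene and each blue bar a median. The ERK-responsive transcripts have a median of -0.31 and reach down to -3.42, while the other 6 lists have medians between -0.02 and 0.14 and the feedback genes -0.02.

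Across all arrays, the mean level ran from 5.885 to 7.614 between samples, replicates of a group had a median SD of 0.0615 to 0.147, and the lowest correlation between replicates was 0.984. Sets differ in scale, so levels are read within a set. Of 12 genes that mark K562 and erythroid cells, 11 were measured and 11 were called higher in the 8 sets together. Of all genes, 41.6% were called higher. BCR was called in 2 of 8 sets fitted alone. The levels of the 11 ran from the 62.6th percentile (BCR) to the 99.7th (HBE1). The part of the rise of these 11 genes in the members' changes was not tested. Markers of other cell types that reached the median level were 4 of 6 for T cells, 2 of 4 for B cells, 3 of 5 for fibroblasts, 2 of 4 for epithelial cells and 0 of 7 for monocytes and granulocytes. Of these 26 genes, 10 were called higher and 3 lower, where 41.6% and 27.1% of all genes were. The T cell marker CD3D fell by 1.73 on the log2 scale, with 8 of 8 sets called lower, as were 6.57% of all probe sets. It was the 1 T cell marker of 6 called lower. CD3E and CD5 were called higher (0.17 and 0.22), and the other 3 were not called. The part of these 26 genes in the members' changes was not tested. As a sign of RNA quality, the 3′ minus 5′ signal of the GAPDH control differed by 0.02 between treatments (exact sign-flip p = 0.531), and that of the actin control by 0.15, with 6 of 8 sets above 0 (exact sign-flip p = 0.0469, two-sided). The part of this actin difference in the members' changes was not tested.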

How the data were processed

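The 48 arrays were read from the series' table of deposited values, which were taken as log2 from their range (2.414 to 14.95). How they were background-corrected and normalised is not given in the sources used here. Per the labels' protocols, targets came from about 8 micrograms of total RNA, with fewer spike-in controls in the imatinib samples. The platform annotation named 1 gene for 19065 of 22283 probe sets, several for 1043 and none for 2107; 68 controls were left out.

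The deposited values were fitted with limma 3.58.1 in R 4.3.3 on 22215 probe sets, with set and treatment as terms over the 48 samples (24 against 24), for each set alone (3 against 3), and with 7 set-by-treatment terms. P-values were Benjamini-Hochberg adjusted over all probe sets and read at 0.05. A gene was its brightest probe set. Pairs of members and of probe sets were compared with exact two-sided sign-flip tests over 8 set differences, whose smallest p is 0.0078125. Named pathway genes were drawn from the up to 5 of a list with the smallest p at or above the median level. That level was the mean of both treatments, so a strongly changed gene could pass through 1 treatment. The genes most like SPRY4 were the 5 with the highest r. NF1 was named after its values were seen. The members and lists were chosen with earlier results of these data known. Fits were tested on simulated data. Alternatives were array centring, quantile normalisation, a level filter, 1 difference per set, limma's moderation with its trend and robust settings, and the replicate number as a block. Others were leaving out each sample or set. For the pathway lists, the mean of a gene's probe sets was also used. For the changes of member probe sets, an exact sign-flip test over 8 set differences was added. Replicates limit the precision at 3 per group in a set. Upstream windows came from RefSeq's table for GRCh38.p14.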

Additional observations from a re-analysis of the deposited data

Results flagged for a closer look

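The size of the change differed between the 8 sets at 5 member probe sets, by the F test of the set-by-treatment terms (limma, adjusted over all probe sets). The adjusted p was 7.89e-09 for SPRY4 221489_s_at, whose changes ran from -2.67 in set G to -1.18 in set A. It was 8.02e-05 for DUSP5 209457_at (-1.54 in G to -0.34 in E) and 0.000482 for SPRY2 204011_at (-1.13 in G to -0.15 in C). It was 0.000424 for SPRED2 212466_at (-1.03 in G to -0.01 in E) and 0.0206 for SPRED2 212458_at (-1.86 in C to -1.01 in H). Without set G the adjusted p was 0.0694 for DUSP5, 0.0536 for SPRY2 and 0.085 for SPRED2 212466_at. The SD of the change over all probe sets ran from 0.396 to 0.498 between sets, with G at 0.483 and C at 0.498. What separates the sets is not given in the sources used here, and its part in these differences was not tested.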

How the results depend on the processing

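The direction and call of SPRY4, SPRED2 212458_at and DUSP1 in the 8 sets together held under each of 63 alternatives, and those of DUSP5 and SPRY2 under each of 62; the level filter leaves DUSP5 and SPRY2 out, so it gave no value for them. Of the member probe sets called higher (5), 2 were left when arrays were centred, 3 after quantile normalisation, 1 among probe sets at or above the median level and 3 with 1 difference per set; leaving out 1 sample or set gave 2 to 6 (2 without set B, 3 without set C, E or G). Of those called lower (6), 2 were left at or above the median level, and 5 to 6 when 1 sample or set was left out. Pathway genes called higher went from 27 to 17 at or above the median level, and to between 24 and 30 when 1 sample or set was left out; those called lower to between 36 and 39. In single lists, without 1 sample or set, feedback inhibitors and RAS GTPase-activating proteins had 3 to 6 higher and 1 to 2 lower, and p38 and JNK genes 1 to 2 of each; with arrays centred, adaptors had 1 higher. Within single sets, the level filter left 3 member probe sets to test, and all 3 were called in each of the 8 sets. Without 1 sample the counts were 6 in A, 6 to 8 in B, 5 to 8 in C, 4 to 7 in D, 3 to 8 in E, 5 to 6 in F, 6 to 8 in G and 6 to 7 in H. The count of members whose change differed between sets (5) was 2 at or above the median level and 2 to 5 when 1 sample or set was left out. Neighbouring members that differed (3) were 2 after quantile normalisation and 0 to 3 without 1 set, where the smallest p is larger with 7 sets. The cause of these shifts was not tested, beyond the fewer features tested under the level filter. The replicate numbers showed no clear pairing of the samples. Deviations of 24 same-numbered pairs had a median r of 0.0161 (range -0.515 to 0.488), and 7 of 24 were above 0.1. The median r of 48 differently numbered pairs was -0.0319. Whether samples were paired in single sets was not tested. With the replicate number as a block, 4 member probe sets were called higher and 6 lower, 4 differed between sets, and SPRY1 lost its call (adjusted p = 0.0848), as did the SPRED2 212458_at difference between sets (0.0743).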

Other observations

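A further probe set, 220983_s_at, carries a SPRY4 transcript accession in the platform annotation, while the annotation's gene column gives it 2 other symbols. It was therefore not counted as a member. It changed by 0.06 ± 0.03 on the log2 scale (SE; limma adjusted p = 0.121, 24 against 24), with set changes from -0.06 to 0.20. It stood at a mean percentile of 8.06 of all probe sets, where 221489_s_at, the SPRY4 probe set of the report, stood at 78.4.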
